A study of Homo sapiens with 15 samples.

Results

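The genes of the Krüppel-like factor (KLF) family were followed in HCC95 cells, a human LUSC (lung squamous cell carcinoma) cell line, after siRNA knockdown of 4 transcription factors. The members were chosen by gene name: KLF3, KLF4, KLF5, KLF6, KLF7, KLF8, KLF9, KLF10, KLF11 and KLF13, 10 of the 61544 genes in the count table. HCC95 cells carried siTP63b, siSOX2b, siKLF5b or siGRHL2a, each against the factor in its name, or the negative control siRNA siNC1. Each of these 5 groups had 3 RNA-seq libraries from the same line, and all cells, controls included, carried an siRNA. The interval between transfection and RNA isolation is not given for these libraries in the sources used here, and nothing in the labels says whether the 3 libraries came from separate cultures, so p-values measure the spread between these libraries.

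KLF proteins are transcription factors with zinc fingers at their carboxyl end that bind GC-rich boxes and the related CACCC (GT) box, which the SP family binds as well. Members with similar fingers compete for the same boxes and differ in the partners that their other parts recruit. KLF4, KLF5, KLF6 and KLF7 are mostly known as activators, KLF3 and KLF8 recruit the corepressor CtBP, and KLF9, KLF10, KLF11 and KLF13 recruit the SIN3A corepressor. In squamous epithelia KLF5 is known for the growth of basal cells and KLF4 for differentiation and barrier formation.

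Total counts lay between 15655495 and 24845273 for the 6 siNC1 and siKLF5b libraries, and between 22255856 and 34229063 for the other 9. These are also 2 sets by column name, with and without a prefix, and even numbers made up 49.7% to 50.7% of the counts in the first set and 66.1% to 69.0% in the second. Whether reads or read pairs were counted is not given in the sources used here, so a printed count of the second set may stand for fewer fragments; with its counts halved no call of a member was lost. The comparison of siTP63b, siSOX2b or siGRHL2a with siNC1 crosses these sets, so the knockdown and the set cannot be told apart there. Squamous identity was visible in all groups: the 9 squamous markers summed to between 6685 and 12683 CPM (CPM being read counts scaled to library size, with TMM factors), while the 10 markers of immune, stromal, endothelial and glandular cells summed to between 16.1 and 26.1 CPM. The T cell gene CD3E had at most 1 count in any library, whereas VWF and NKX2-1 were counted in every library.

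The members lie on several chromosomes. In hg38 the spans, with strand in brackets, are KLF3 (ENSG00000109787.13) at chr4:38664197-38701517 (plus), KLF4 (ENSG00000136826.15) at chr9:107484852-107490482 (minus), KLF6 (ENSG00000067082.15) at chr10:3775996-3785281 (minus), KLF7 (ENSG00000118263.15) at chr2:207074137-207167267 (minus). Further members are KLF8 (ENSG00000102349.18) at chrX:56232356-56291531 (plus), KLF9 (ENSG00000119138.5) at chr9:70384604-70414657 (minus), KLF10 (ENSG00000155090.15) at chr8:102648784-102655725 (minus), KLF11 (ENSG00000172059.11) at chr2:10042849-10054836 (plus) and KLF13 (ENSG00000169926.11) at chr15:31326835-31435665 (plus). The span and identifier of KLF5 stand with its values.

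In siNC1 the members spanned a wide range of expression. Per kilobase of annotated exon, the mean level was 30.7 CPM for KLF5, 19.6 for KLF10 and 9.62 for KLF3, which formed the upper end on this scale. KLF13 had 3.67, KLF4 3.40, KLF6 2.94 and KLF7 2.46 CPM per exon kilobase. KLF11 had 1.46 and KLF9 1.18, and KLF8 was near the lower limit with 0.012. Reads were counted over whole gene spans, introns included, so an exon length does not match the counted region exactly. Per kilobase of span the order was different: KLF10 (10.8 CPM) stood above KLF5 (5.0 CPM), KLF3 (1.75) below KLF4 (2.21) and KLF6 (1.94), and KLF13 (0.318) below KLF11 (0.560). The ranking therefore depends on the length used.

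The first question was whether another KLF gene rises when KLF5 is knocked down. None of those tested did. In siKLF5b 8 of the 9 members that could be tested fell relative to siNC1 (adjusted p below 0.05, edgeR), KLF5 among them, and 0 rose, where 12.9% of all genes tested fell and 10.3% rose. At an unadjusted p below 0.05 the 8 were also the only ones to pass, and DESeq2 gave 8 lower and 0 higher. The decreases were modest, between 1.11-fold and 1.60-fold, and 0 of the 9 crossed the further threshold of a DEG (differentially expressed gene, absolute log2FC above 0.75), by edgeR, DESeq2 or unadjusted p, against 3.26% of all genes. The median log2FC of the 9 was -0.45, beside -0.0097 over all genes tested. KLF5 is part of this median and of the 8, and its fall was the aim of the siRNA. Summed over the 10 members, expression was 355 ± 6.54 CPM in siNC1 and 267 ± 7.11 CPM in siKLF5b (SD, n = 3), and KLF5 contributed 30.6% to 33.9% of that sum in siNC1 and 26.9% to 27.6% in siKLF5b.

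KLF5, the targeted gene (ENSG00000102554.14, chr13:73054976-73077541 of hg38, plus strand), had 122.8, 109 and 107 CPM in the 3 siNC1 libraries and 71.8, 71.8 and 73.8 CPM in those of siKLF5b. All siKLF5b values lay below all control values, and about 64.2% of the control level was left. The log2FC was -0.64 ± 0.06 (SE, adjusted p = 5.29e-10), and the exact two-sided permutation test gave p = 0.1, the smallest that 3 libraries against 3 allow. KLF11, which like KLF10 is an early gene of the TGF-beta response, had the largest decrease of the family by its point estimate. Its level was 6.78, 6.70 and 6.67 CPM in siNC1 and 4.03, 4.40 and 4.13 CPM in siKLF5b (log2FC -0.68 ± 0.14, adjusted p = 0.000359). The intervals of KLF11 (-0.96 to -0.40) and KLF5 (-0.76 to -0.52) overlapped, so these data do not order the decreases.

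Among the other activators, KLF4, one of the reprogramming factors, had 11.6, 13.0 and 12.8 CPM in siNC1 against 8.23, 9.16 and 9.92 CPM in siKLF5b (log2FC -0.46 ± 0.10, adjusted p = 0.00128). KLF7, best known from neurons, had 24.0, 23.8 and 23.1 CPM against 16.1, 15.9 and 18.1 CPM (log2FC -0.51 ± 0.08, adjusted p = 5.48e-06). In both genes the 2 groups did not overlap. KLF7 shares part of its span with MYOSLID on the opposite strand, whose counts were 21.4% of those of KLF7, and the use of strand in the counting is not stated. KLF6, a widely expressed activator, had 17.8, 18.6 and 17.7 CPM in siNC1 and 14.7, 14.2 and 16.7 CPM in siKLF5b (log2FC -0.25 ± 0.09, adjusted p = 0.0317). The call for KLF6 was close to the threshold. With 1 library omitted its log2FC lay between -0.32 and -0.21 and it passed in 1 of 6 fits, the one without siKLF5b replicate 3, and adjusted p reached 0.164 without siKLF5b replicate 2. It was also lost with no filter on low counts (adjusted p = 0.0552).

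KLF3, the CtBP-binding repressor with the highest counts of its kind here, had 65.7, 62.8 and 67.0 CPM in siNC1 and 49.8, 46.6 and 46.9 CPM in siKLF5b. The groups were apart, with a log2FC of -0.45 ± 0.06 (adjusted p = 1.59e-06). The antisense gene KLF3-AS1, which overlaps KLF3, had 8.06% of its counts. KLF8, a related repressor, was barely detected, with 2, 3 and 5 counts in siNC1 and 7, 6 and 1 counts in siKLF5b. It did not pass the filter on low counts, and alternatives that tested it gave adjusted p between 0.509 and 0.954, so no difference was detectable at this depth.

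The SIN3A-recruiting members moved less evenly. KLF13, first described in T cells, had 35.1, 35.8 and 32.8 CPM in siNC1 and 28.8, 25.4 and 29.8 CPM in siKLF5b (log2FC -0.31 ± 0.07, adjusted p = 0.00166). KLF10 had 72.3, 75.5 and 76.9 CPM against 66.9, 66.1 and 69.1 CPM, a log2FC of only -0.15 ± 0.05 (adjusted p = 0.0389). Its groups did not overlap, but the fall passed in 2 of the 6 fits with a library left out, those without siKLF5b replicate 3 and without siNC1 replicate 1, and adjusted p reached 0.128 without siKLF5b replicate 2. Upper-quartile factors (adjusted p = 0.0688) and no filter on low counts (adjusted p = 0.105) lost it as well. KLF9, a glucocorticoid-induced gene, was the tested member that did not fall: 5.90, 6.59 and 5.91 CPM in siNC1 and 6.04, 6.82 and 6.36 CPM in siKLF5b overlapped. Its log2FC was 0.07 with an interval of -0.20 to 0.34 (adjusted p = 0.779).

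**Figure D1:**
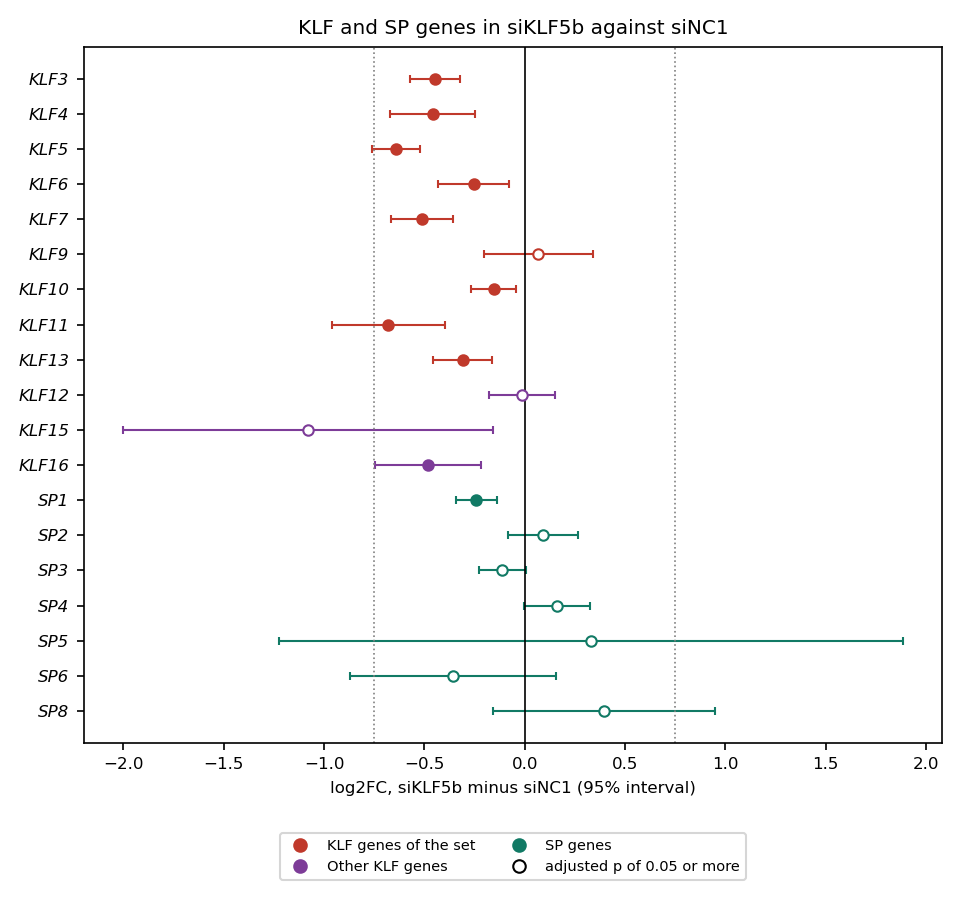
log2FC between siKLF5b and siNC1 (x axis, 95% interval) of the 9 tested members and of the tested genes among the other KLF and SP genes, with dotted lines at an absolute log2FC of 0.75. The 8 filled red points, adjusted p below 0.05, include the targeted KLF5 and all lie left of zero, and the open red point of KLF9 lies at 0.07.

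Genes of the family outside the 10 members, and the related SP genes, give the surroundings, beside 12.9% of all genes that fell and 10.3% that rose. Of the 8 other KLF genes 3 could be tested, and KLF16 fell (8.58 CPM in siNC1, 6.17 CPM in siKLF5b, log2FC -0.48 ± 0.13, adjusted p = 0.0059), while KLF12, a further CtBP-binding repressor, had a log2FC of -0.01 (adjusted p = 0.933). KLF15 was at 0.931 CPM in siNC1 and 0.438 CPM in siKLF5b and did not pass (adjusted p = 0.085). The KLF16 call was lost without siKLF5b replicate 2 (adjusted p = 0.0509) and without siNC1 replicate 1 (adjusted p = 0.0767), and an overlapping gene on the other strand had 21.4% of its counts. Of the 9 SP genes 7 could be tested and SP1, the ubiquitous activator at GC boxes, fell (121 to 102 CPM, log2FC -0.24 ± 0.05, adjusted p = 0.000635), while 6 did not pass. KLF16 and SP1 are named because they passed, a choice made after their values were seen.

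The promoter sequences of the members are of interest because KLF and SP proteins bind GC and GT boxes, and because most members fell together. RefSeq promoters (GRCh38.p14, 250 bases before and 50 after the start) were matched for 8 members, all but KLF3 and KLF10. KLF7 and KLF8 had 4 promoters each and KLF5 and KLF11 2 each. For these the promoter nearest to the start of the canonical Gencode transcript was used, and the others were not searched. Printed 5′ to 3′ are those of KLF5 and KLF11, with the lowest log2FC values, of KLF4, and of KLF9, which did not fall. KLF5 was the target of the siRNA, and KLF7, not printed, fell further than KLF4 by its point estimate. Every match to GGGCGG (GC box) or CACCC (GT box) is in capitals. Both strands were searched, so that CCGCCC and GGGTG also stand in capitals.
KLF5 (chr13:73058755-73059054, plus strand): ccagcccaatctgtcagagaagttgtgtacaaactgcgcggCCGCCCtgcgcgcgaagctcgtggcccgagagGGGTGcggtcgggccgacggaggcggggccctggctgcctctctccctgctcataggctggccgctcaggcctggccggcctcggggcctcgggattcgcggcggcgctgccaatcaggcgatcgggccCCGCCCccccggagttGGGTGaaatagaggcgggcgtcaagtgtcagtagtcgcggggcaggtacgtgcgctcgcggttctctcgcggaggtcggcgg
KLF11 (chr2:10043579-10043878, plus strand): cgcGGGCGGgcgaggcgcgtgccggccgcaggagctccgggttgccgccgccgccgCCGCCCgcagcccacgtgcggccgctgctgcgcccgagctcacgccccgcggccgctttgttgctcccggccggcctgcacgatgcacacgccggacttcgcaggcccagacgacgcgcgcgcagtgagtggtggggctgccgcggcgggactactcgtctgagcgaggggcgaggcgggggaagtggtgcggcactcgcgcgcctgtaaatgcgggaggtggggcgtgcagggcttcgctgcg
KLF4 (chr9:107489720-107490019, minus strand): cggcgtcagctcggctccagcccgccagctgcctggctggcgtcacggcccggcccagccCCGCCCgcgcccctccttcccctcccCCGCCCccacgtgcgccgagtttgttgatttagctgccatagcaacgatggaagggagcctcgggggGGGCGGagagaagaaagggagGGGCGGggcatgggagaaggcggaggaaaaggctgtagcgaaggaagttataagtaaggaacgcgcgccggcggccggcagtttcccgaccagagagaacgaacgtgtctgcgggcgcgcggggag
KLF9 (chr9:70414608-70414907, minus strand): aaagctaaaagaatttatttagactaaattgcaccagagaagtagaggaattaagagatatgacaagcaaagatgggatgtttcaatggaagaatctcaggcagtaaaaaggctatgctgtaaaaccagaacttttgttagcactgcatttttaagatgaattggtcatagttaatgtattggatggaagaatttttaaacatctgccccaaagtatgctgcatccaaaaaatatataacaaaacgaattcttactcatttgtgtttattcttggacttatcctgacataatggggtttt
The KLF4 window held 4 GC boxes, those of KLF5 and KLF11 2 each, and that of KLF9 0 boxes of either kind. KLF5 also held 2 GT boxes. The start used for KLF11 lies 279 bases from the start of its canonical Gencode transcript, and in the other 7 members the starts coincided. The KLF11 window, 250 bases before and 50 after, thus does not hold its canonical start. Its 2 GC boxes may lie outside the promoter of that transcript.

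A GC box was present in 6 of the 8 promoters, KLF11 with its other start included, where 45% of all 35116 RefSeq promoters of this length held one. A GT box was present in 4 of 8, where 59.9% held one. Each member entered with 1 promoter, while a gene can enter the 35116 with several. In KLF13, 1 base belonged to a GC box and a GT box at once. The GC content of the windows ran from 32.7% in KLF9 to 78.3% in KLF13, beside a median of 58.7% over all promoters. KLF7 fell (log2FC -0.51) with 0 GC boxes and 2 GT boxes in this window. A match is only a string of letters, and binding was not measured in these libraries.

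**Figure D2:**
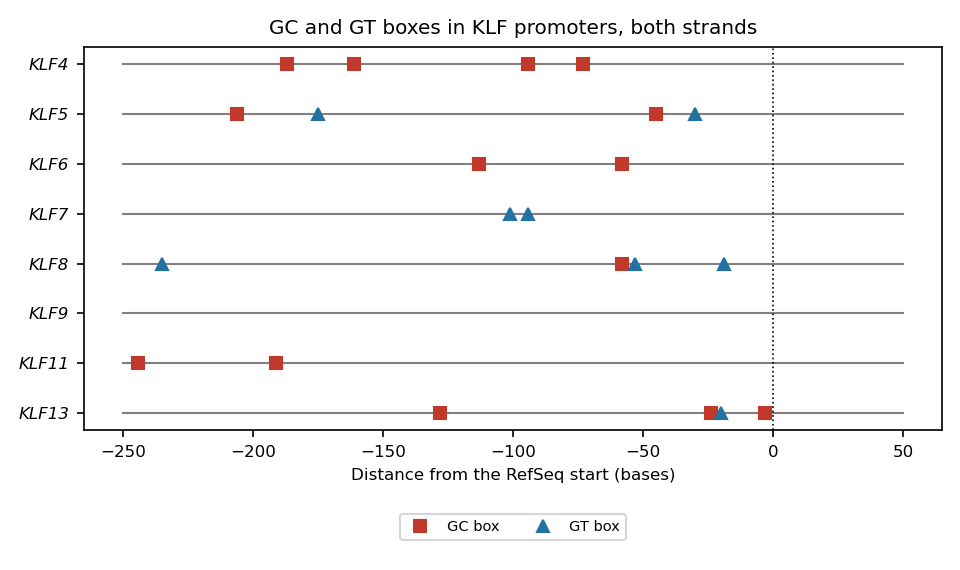
Positions of GC boxes (squares) and GT boxes (triangles) in the RefSeq promoters of 8 members, on either strand, as distance in bases from the start (x axis, 250 before to 50 after). KLF4 holds 4 GC boxes and the line of KLF9 is empty.

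Partners and regulated genes known from work on KLF proteins were counted from lists chosen with earlier results of these data known. Over all genes tested in siKLF5b, 12.9% fell, 10.3% rose, 3.26% were DEGs and the median log2FC was -0.0097. Of 14 KLF cofactors 4 fell and 2 rose in siKLF5b and 0 were DEGs. Of 6 tested genes for the turnover of KLF5 protein 2 fell and 0 rose. Of 12 known KLF5 target genes 7 fell, 1 rose and 4 did not pass, with a median log2FC of -0.33. CCND1, which encodes cyclin D1 of the G1 phase, was the DEG among them. Its level was 1167 CPM on average in siNC1 and 413 CPM in siKLF5b (log2FC -1.50 ± 0.04, adjusted p = 1.7e-21), a larger shift than in any KLF member. LTO1, which overlaps CCND1 on the opposite strand, had 38.7% of its counts. The target that rose was BIRC5, an inhibitor of apoptosis (61.8 to 81.3 CPM, adjusted p = 2.2e-06), named after its value was seen. Of 5 KLF4 target genes 2 fell, and CDKN1A, the cell cycle inhibitor p21, was a DEG at 4.39, 4.36 and 3.82 CPM in siKLF5b against 12.1, 11.1 and 9.60 CPM in siNC1 (log2FC -1.38 ± 0.12, adjusted p = 2.41e-10).

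KLF10 and KLF11 are induced by TGF-beta and KLF9 by glucocorticoids, so genes of these responses were counted beside them. Of 11 TGF-beta response genes 3 fell, 1 rose and 7 did not pass in siKLF5b, where 12.9% of all genes tested fell and 10.3% rose. The inhibitory SMAD7 fell from 4.99 to 2.48 CPM (log2FC -0.96 ± 0.19, adjusted p = 0.00035), while CCN2, a matrix-associated growth factor gene, rose from 1.74 to 3.16 CPM (log2FC 0.85 ± 0.21, adjusted p = 0.00266), both on low counts. Of 7 tested glucocorticoid response genes 3 fell and 1 rose, with 0 DEGs. Of the 9 squamous markers 4 fell, 2 rose and 3 did not pass, with a median log2FC of -0.15. KRT6A, KRT14 and KRT17 were DEGs and lower in siKLF5b (log2FC -1.29, -1.26 and -1.47), and SOX2 and DSG3 were higher. The summed level of the 9 was 6685 to 7745 CPM in siKLF5b against 10628 to 12192 CPM in siNC1, most of it from the basal keratin gene KRT5 (5363 and 8633 CPM on average). Their part in the KLF values was not tested, and bulk RNA cannot tell fewer cells of a type or state from less RNA per cell.

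The second question was how the members differ between siTP63b, siSOX2b and siGRHL2a, which lie in 1 column set. The 3 comparisons share groups, so their values are not independent of each other. In siTP63b 5 members were lower and 1 was higher than in siSOX2b, where 15.4% of all genes were lower and 16.4% higher. Against siGRHL2a 3 members were lower in siTP63b and 0 higher (unadjusted p gave 4 lower and 0 higher, DESeq2 3 and 0), beside 13.4% lower and 13.6% higher of all genes. In siSOX2b 2 members were higher and 3 lower than in siGRHL2a, beside 11.8% and 12.7%. By edgeR, DESeq2 and unadjusted p alike 0 members were DEGs in the 3 comparisons, where 6.7%, 5.39% and 3.32% of all genes were.

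KLF7 set siTP63b apart. The siTP63b libraries had 36.2, 36.8 and 40.6 CPM, those of siSOX2b 56.4, 60.9 and 54.2 CPM and those of siGRHL2a 61.7, 60.7 and 58.9 CPM. The siTP63b libraries lay below both other groups, with log2FC values of -0.60 ± 0.06 against siSOX2b (adjusted p = 9.23e-09) and -0.68 ± 0.06 against siGRHL2a (adjusted p = 8.32e-10). Between siSOX2b and siGRHL2a KLF7 did not pass (log2FC -0.08, interval -0.21 to 0.05, adjusted p = 0.403).

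KLF6 set siSOX2b apart instead. Its values were 28.4, 27.9 and 28.0 CPM for siTP63b, 39.9, 47.8 and 40.6 for siSOX2b, and 30.5, 33.0 and 31.9 for siGRHL2a. All siSOX2b libraries were above the rest, by a log2FC of 0.43 ± 0.07 over siGRHL2a (adjusted p = 4.54e-05), and siTP63b was lower than siSOX2b by a log2FC of -0.61 ± 0.07 (adjusted p = 1.15e-07). The siTP63b and siGRHL2a libraries did not overlap, but their difference did not pass (log2FC -0.18, adjusted p = 0.0795). KLF9 was lowest in siSOX2b, at 3.18, 2.67 and 3.36 CPM, against 4.70, 4.35 and 4.77 CPM in siTP63b and 4.47, 4.58 and 4.53 CPM in siGRHL2a. It was higher in siTP63b (log2FC 0.59 ± 0.14, adjusted p = 0.00122), and siSOX2b was lower than siGRHL2a (log2FC -0.57 ± 0.14, adjusted p = 0.00245), while siTP63b and siGRHL2a differed by only 0.03 (adjusted p = 0.914).

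KLF10 and KLF13 stepped in the same order, with siTP63b lowest and siGRHL2a highest. KLF10 measured 72.4, 82.3 and 83.0 CPM under siTP63b, 95.3, 100.4 and 99.6 under siSOX2b, and 113, 113 and 112 under siGRHL2a, with no overlap at either step. Each step passed for KLF10 (log2FC -0.31, adjusted p = 1.85e-05 for siTP63b against siSOX2b; log2FC -0.19, adjusted p = 0.00598 for siSOX2b against siGRHL2a), the upper one not without siSOX2b replicate 1 (adjusted p = 0.0525). For KLF13 the siTP63b libraries had 49.9, 51.3 and 58.8 CPM, the siSOX2b libraries 64.7, 64.8 and 63.2 CPM, and the siGRHL2a libraries 75.9, 71.3 and 74.9 CPM. The lower step was a log2FC of -0.27 ± 0.06 (adjusted p = 0.00145) and the upper -0.20 ± 0.06 (adjusted p = 0.0162). The upper step of KLF13 passed in 2 of the 6 fits with a library left out, those without replicate 2 of either group, and adjusted p reached 0.0758 without siGRHL2a replicate 1. From end to end, siTP63b was lower than siGRHL2a by a log2FC of -0.50 ± 0.05 in KLF10 and -0.47 ± 0.06 in KLF13.

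KLF5 itself stood at 135, 134 and 145 CPM after siTP63b, at 151, 161 and 146 CPM after siSOX2b and at 140, 127 and 129 CPM after siGRHL2a. It was higher in siSOX2b than in siGRHL2a (log2FC 0.21 ± 0.05, adjusted p = 0.00477), and in every alternative fit as well. The difference between siTP63b and siSOX2b (log2FC -0.14 ± 0.05, adjusted p = 0.0413) was lost in 4 of the 6 fits with a library left out, those without replicate 1 or 2 of either group, with adjusted p up to 0.189 without siSOX2b replicate 2. It was also lost with upper-quartile factors (adjusted p = 0.0534), with no filter (adjusted p = 0.0662) and with the 9 libraries fitted alone (adjusted p = 0.0585).

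KLF3, KLF4 and KLF11 passed in none of the 3 comparisons, although KLF4 was lower in siTP63b than in siSOX2b when siTP63b replicate 2 was left out (adjusted p = 0.0454). The KLF4 libraries read 22.5, 27.7 and 26.3 CPM for siTP63b, 28.6, 30.8 and 27.2 for siSOX2b, and 26.9, 26.0 and 29.4 for siGRHL2a, and the intervals of its differences ran from -0.36 to 0.25. KLF3 lay between 55.4 and 66.3 CPM in the 9 libraries and KLF11 between 5.80 and 8.19 CPM, with overlap in all pairs but KLF11 in siTP63b and siGRHL2a (log2FC 0.22, adjusted p = 0.196). KLF8 had 20, 10 and 10 counts in siTP63b, 4, 6 and 2 in siSOX2b and 10, 9 and 4 in siGRHL2a. The siTP63b libraries were the highest, at 0.45 CPM on average against 0.131 and 0.228 CPM. KLF8 was below the filter in the fit of all libraries. Of the alternatives that tested it between siTP63b and siSOX2b, the fit of the 9 libraries alone put siTP63b higher (log2FC 1.71 ± 0.65, adjusted p = 0.0472), whereas it did not pass with no filter (adjusted p = 0.0723) or without siSOX2b replicate 3 (log2FC 1.53, adjusted p = 0.0849). Nearly all of these KLF8 counts were even, so they may exceed the number of RNA fragments counted, and with the counts of the 9 libraries halved KLF8 was not tested.

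**Figure D3:**
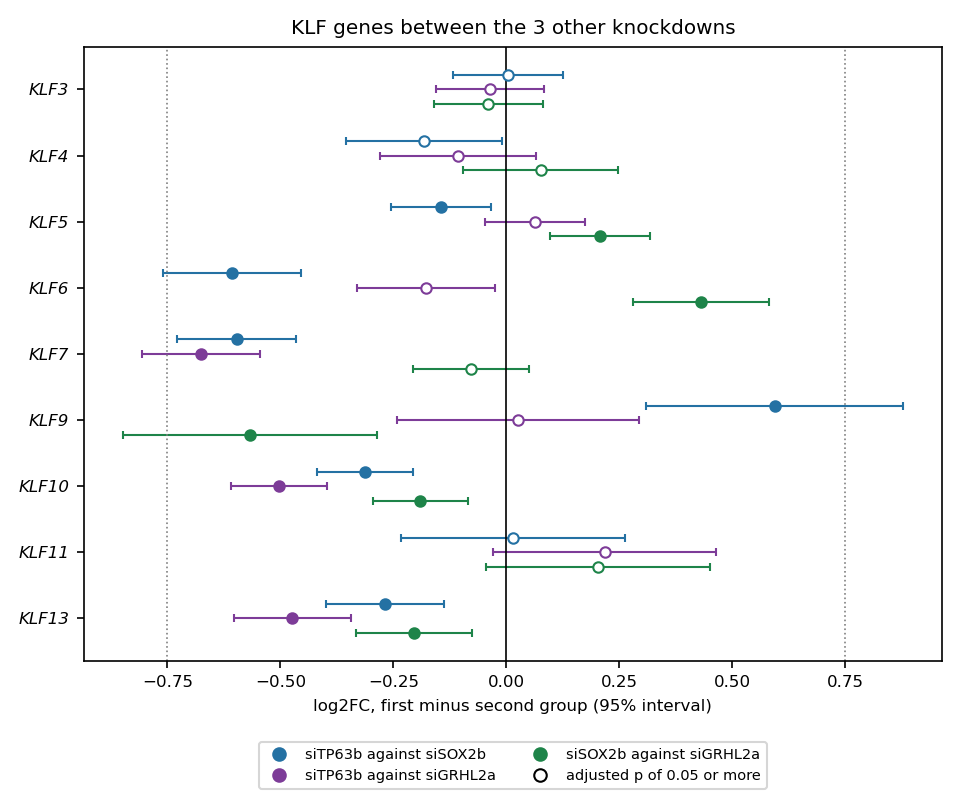
log2FC (x axis, 95% interval) of the 9 tested members in the 3 pairwise comparisons of siTP63b, siSOX2b and siGRHL2a, filled where adjusted p was below 0.05, with dotted lines at 0.75. No point crosses the dotted lines, and KLF3, KLF4 and KLF11 have open points in all 3 comparisons.

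Known KLF5 target genes had median log2FC values near 0 between these groups (-0.05, -0.04 and -0.03, beside -0.18, -0.11 and -0.04 for the KLF members). In each comparison 1 of the 12 was a DEG, where 6.7%, 5.39% and 3.32% of all genes were. FGFBP1, a KLF5 target that carries fibroblast growth factors, averaged 334, 738 and 598 CPM across siTP63b, siSOX2b and siGRHL2a (log2FC -1.14 ± 0.05 and -0.84 ± 0.05 for siTP63b against the other two, adjusted p = 1.26e-16 and 2.12e-13). PTGES, the prostaglandin E synthase gene, was the DEG of the third comparison, higher in siSOX2b than in siGRHL2a (18.0 and 10.2 CPM, log2FC 0.83, adjusted p = 6.01e-07). At an adjusted p below 0.05, siTP63b had 2 of the 12 KLF5 targets above and 5 below siSOX2b, beside 16.4% and 15.4% of all genes. It had 5 above and 5 below siGRHL2a, beside 13.6% and 13.4%. For siSOX2b, 5 were above and 3 below siGRHL2a, beside 11.8% and 12.7%. Of the 5 KLF4 targets 1 rose and 1 fell in each of the 3 comparisons, and the cornified envelope gene SPRR1A was a DEG in 1 of them, at 1.71 CPM in siSOX2b and 0.782 CPM in siGRHL2a (adjusted p = 0.0111, and 0.0675 without siGRHL2a replicate 1).

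Of 7 tested glucocorticoid response genes, siTP63b had 1 above and 4 below siSOX2b and 1 above and 2 below siGRHL2a, and siSOX2b had 4 above and 0 below siGRHL2a. Over all genes, 11.8% to 16.4% were above and 12.7% to 15.4% below in the 3 comparisons. The DEGs among the 7 numbered 3, 2 and 2, where 6.7%, 5.39% and 3.32% of all genes were DEGs, and the genes named here are those DEGs. FKBP5, a chaperone of the receptor, had 54.0 CPM in siTP63b and 95.5 CPM in siSOX2b (log2FC -0.82 ± 0.06). The kinase gene SGK1 had 13.3 CPM in siTP63b, 30.7 in siSOX2b and 26.3 in siGRHL2a, and the phosphatase gene DUSP1 had 1.69, 3.56 and 1.96 CPM in the same order of groups. ERRFI1, an inhibitor of EGFR, went the other way in siTP63b, with 60.2, 49.5 and 23.8 CPM. Like FKBP5, SGK1 and DUSP1, it was higher in siSOX2b than in siGRHL2a (log2FC 1.06). KLF9, by contrast with FKBP5, SGK1 and DUSP1, had its lowest level in siSOX2b. A gene that overlaps DUSP1 on the opposite strand had 113% of its counts, and the counts of DUSP1 were low. Of the 11 TGF-beta response genes, siTP63b had 4 above and 2 below siSOX2b and 2 above and 4 below siGRHL2a, and siSOX2b had 0 above and 2 below siGRHL2a. Markers moved with the groups here too. Of the 9 squamous markers, siTP63b had 1 above and 6 below siSOX2b and 1 above and 7 below siGRHL2a. In siSOX2b 0 were above and 7 below siGRHL2a. TP63 and SOX2, the targets of siTP63b and siSOX2b, are among the 9, so the siRNAs themselves set part of these counts. TP63 had 363, 690 and 831 CPM in siTP63b, siSOX2b and siGRHL2a. KRT14 and KRT17 were lower in siTP63b than in both others. SOX2, the target of siSOX2b, went the other way with 29.5, 8.97 and 20.2 CPM in siTP63b, siSOX2b and siGRHL2a. The summed squamous level, with the targeted TP63 and SOX2 included, was 6800 to 7849 CPM in siTP63b, 9741 to 10778 in siSOX2b and 12328 to 12683 in siGRHL2a. Most of it again came from KRT5 (5748, 7474 and 9192 CPM on average). The part of these markers in the KLF values was not tested.

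**Figure D4:**
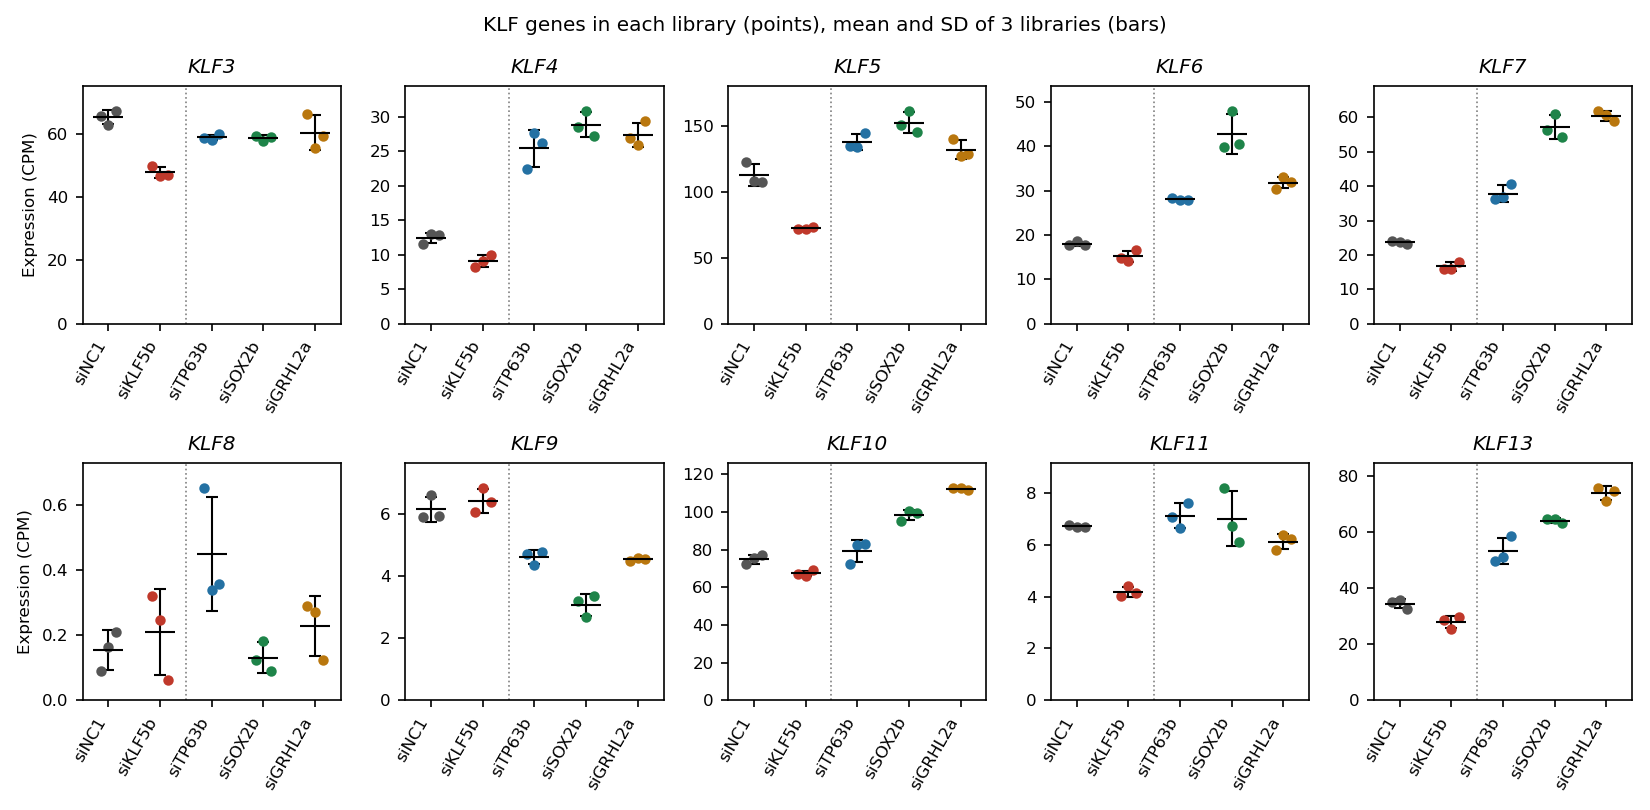
Expression in CPM (y axes, from 0) of the 10 members in each of the 15 libraries (points), with mean and SD of 3 libraries per group, the dotted line parting the 2 column sets. KLF5 falls from 113 to 72.5 CPM in siKLF5b. KLF4, KLF5, KLF6, KLF7 and KLF13 stand higher in every library right of the line than in any left of it. The share of all genes parted in this way was not counted. Across the line the knockdown and the column set cannot be told apart.

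Against siNC1, the study's own control, 5, 6 and 6 of the 9 tested members were higher in siTP63b, siSOX2b and siGRHL2a (adjusted p below 0.05, edgeR). Lower were 2, 2 and 1. Of all genes 28%, 28.1% and 28.2% were higher and 26.2%, 27.3% and 25.8% lower. Here the knockdown and the column set cannot be told apart. As values only, KLF4 had a mean of 12.5 CPM in siNC1 and 25.5, 28.9 and 27.4 CPM in siTP63b, siSOX2b and siGRHL2a (log2FC 1.03, 1.21 and 1.14). KLF7 had 23.6 CPM against 37.9, 57.2 and 60.4 CPM (log2FC 0.68, 1.28 and 1.35), and KLF13 34.6 CPM against 53.3, 64.2 and 74.0 CPM (log2FC 0.63, 0.90 and 1.10). KLF4 thus passed the DEG threshold in all 3 groups, and KLF7 and KLF13 were beyond the DEG threshold in siSOX2b and siGRHL2a. KLF6 went from 18.0 CPM to 28.1, 42.8 and 31.8 CPM (log2FC 0.64, 1.25 and 0.82).

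KLF9 went down, from 6.13 CPM to 4.61, 3.07 and 4.53 CPM (log2FC -0.41, -1.0 and -0.43). KLF5 was higher by 0.29, 0.43 and 0.23, and KLF10 by 0.39 and 0.58 in siSOX2b and siGRHL2a but only by 0.08 in siTP63b (adjusted p = 0.201). KLF3 had a log2FC of -0.15 in siTP63b and in siSOX2b and did not pass in siGRHL2a (adjusted p = 0.116), and KLF11 passed in none (adjusted p = 0.388 to 0.669). In DEG counts, siTP63b had 1 member higher and 0 lower (11.4% and 9.24% of all genes), siSOX2b 4 higher and 1 lower (11.6% and 10.1%), and siGRHL2a 4 higher and 0 lower (11.7% and 7.99%); DESeq2 and unadjusted p gave the same member counts. Of the TGF-beta list 10 of 11 genes were higher at an adjusted p below 0.05 in siTP63b and 11 of 11 in siSOX2b and siGRHL2a, beside 28%, 28.1% and 28.2% of all genes, again across the column sets.

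**Figure D5:**
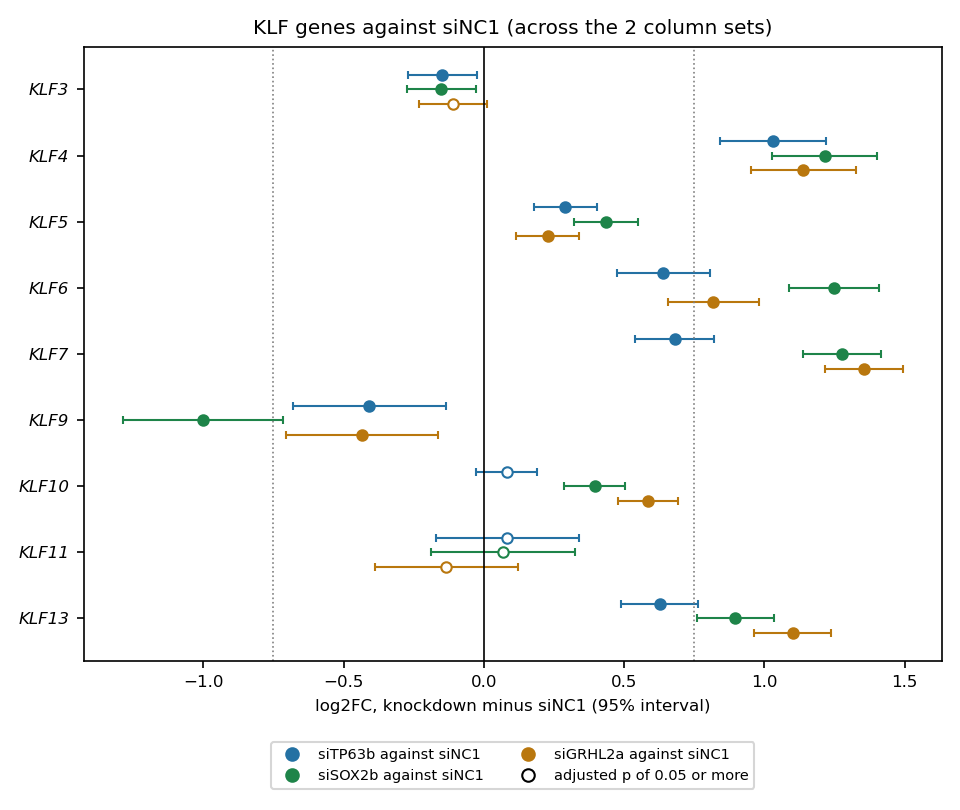
log2FC (x axis, 95% interval) of the 9 tested members in siTP63b, siSOX2b and siGRHL2a against siNC1, a comparison that crosses the 2 column sets, filled where adjusted p was below 0.05. KLF4 lies beyond 0.75 in all 3 groups, and the siSOX2b point of KLF9 lies at -1.0.

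By mean level KLF5 stood in the order siSOX2b, siTP63b, siGRHL2a, siNC1 and siKLF5b, and the neighbours siTP63b and siGRHL2a did not differ beyond their spread by the test (adjusted p = 0.432). KLF4 had the order siSOX2b, siGRHL2a, siTP63b, siNC1 and siKLF5b, where the first 3 did not pass against their neighbours (adjusted p = 0.564 and 0.386). As a description over the 15 libraries, log2 CPM of KLF5 was most like that of NIN, H3-3B and TGFB2 (Pearson r 0.979, 0.976 and 0.9754) and that of KLF4 most like PRSS23, TES and DLC1 (r 0.991, 0.990 and 0.988), among 12061 protein-coding genes whose mean count was 100 or more. All 15 points share the split into 2 column sets, which such a correlation takes up.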

How the data were processed

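HCC95 RNA was captured as poly(A)+ RNA, reverse-transcribed with random hexamers and sequenced as read pairs. The authors aligned reads to hg38 with HISAT2 2.2.1 and deposited raw counts per gene from featureCounts 2.0.1 with Gencode 40. The counted length equalled the gene span for all 61544 genes, and strand is not given in the sources used here. All 15 count columns were matched to libraries by name.

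The tests used edgeR 4.0.16 under R 4.3.3: TMM factors, filterByExpr, 1 quasi-likelihood fit of 15 libraries by group, and Benjamini-Hochberg adjustment over 25108 genes. CPM used the same effective library sizes. A gene rose or fell at an adjusted p below 0.05, and a DEG also needed an absolute log2FC above 0.75. Intervals are 95%. The steps were tested on simulated data. Exon lengths and canonical transcript starts came from Gencode 44. Positions of the 10 members came with the deposited counts, where each span equalled the counted length.

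The members and lists were chosen with earlier results of these data known. All members are named; of the other lists, DEGs of the 4 comparisons within a column set, at most 4 per list and comparison; and 3 genes most like KLF5 and KLF4. One gene that this rule names is not reported here. Alternatives were RLE and upper-quartile factors, at least 10 counts in every library, no filter, 1 column set alone, DESeq2 1.42.0, the replicate number as a block, other log2FC thresholds, halved counts in 9 libraries and each library left out. Their use for the comparisons with siNC1 was chosen after seeing the data.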

Additional observations from a re-analysis of the deposited data

How the results depend on the processing

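The log2FC of KLF5 in siKLF5b kept its direction and passed in all 14 alternatives, between -0.68 and -0.58, which is also the range with a library left out. The 8 lower members of siKLF5b became 6 at least (6 to 8 with a library left out; KLF6 and KLF10 were lost) and 0 rose in any. Members passing numbered 5 to 6 for siTP63b against siSOX2b, 3 for siTP63b against siGRHL2a, and 3 to 5 for siSOX2b against siGRHL2a, 3 without siSOX2b replicate 1. With no log2FC threshold the DEG members were 8, 6, 3 and 5 in the 4 comparisons within a set. In siTP63b against siSOX2b, fitting 9 libraries alone gave 1 DEG member, KLF8, because it then passed the filter; all other alternatives with a threshold gave 0, as did each fit with a library left out. Against siNC1 the counts of 1, 5 and 4 DEG members were the same in 13 alternatives each. Of 1325 alternative log2FC values of named genes, 1278 kept direction and side of the threshold, 40 lost the call, 7 gained it and 0 reversed a call.

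DEGs over all genes numbered 818, 1682, 1354 and 833, and at least 10 counts in every library gave 1090, 897 and 514 in the last 3. With each column set fitted alone they numbered 1090, 1436, 1170 and 667, and with halved counts in 9 libraries 1030, 1453, 1203 and 698. The shares of all genes given above are those of the main fit and shift with these settings. An absolute log2FC above 1 gave 369, 1005, 826 and 485, and no threshold gave 5828, 7977, 6792 and 6151. Over all genes tested, the deviations of same-numbered libraries from their group means had correlations of -0.031 to 0.034. Differently numbered libraries were not set beside them, so whether the numbers pair the libraries was not settled. With the replicate block the members passing were again 8, 6, 3 and 5 with 0 DEGs, and KLF5 was at -0.64. Depth limits KLF8 (1 to 20 counts), and reads in introns enter the counts.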
